A study of Rattus with 9 samples.

Results

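To examine the extrahepatic bile duct after liver transplantation (LT) with and without raised hepatic arterial flow, 10x Genomics 3′ single-cell RNA-seq libraries of rat bile duct were compared on day 7 post-LT. In the transplant arm, rats received LT alone. In the raised-flow arm, rats received LT and the splenic and gastroduodenal arteries were ligated to raise flow in the hepatic artery. Rats of both arms were young Sprague-Dawley animals of an outbred stock. The paper reports the cuff technique and a period of warm ischemia in situ for its LT groups. It does not describe the raised-flow arm, so whether both arms carried the same ischemic injury is not stated there. Each arm held 3 libraries, which were taken as the replicates. Whether an arm's libraries came from separate rats is not stated, so the p-values measure only the spread between libraries, which may be technical. A barcode counted as a cell when it held more than 400 and fewer than 6000 genes and when mitochondrial genes took less than 25%, and hemoglobin genes less than 3%, of its UMIs. A UMI (unique molecular identifier) is the tag that counts 1 captured RNA molecule. The comparison held 62035 of the 150379 cells of the series, from 6 of its 20 libraries, with 34192 cells in the transplant arm and 27843 in the raised-flow arm. A total of 24407 cells from 3 sham libraries, of rats without LT, gave the background level for each value.

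The extrahepatic bile duct is lined by biliary epithelial cells (BEC) and draws its oxygen from the hepatic artery through a peribiliary capillary plexus. Tuft cells are chemosensory epithelial cells with taste-type signalling (Gng13, Trpm5), the transcription factor Pou2f3 and the enzymes of leukotriene synthesis, among them Ltc4s. RT1 is the rat major histocompatibility complex. Its class I genes present peptides to CD8 T cells, its class II genes present peptides to CD4 T cells, and both differ between individuals of an outbred stock.

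The libraries held 7204 to 13575 cells each, 37910348 to 73988450 UMIs in those cells, and a median of 2912 to 4048 UMIs per cell. Pairs of libraries shared 9 to 52 cell barcodes, at most 0.422% of the smaller library. The libraries numbered 2 stood apart in both arms. B-like cells made up 0.517% of cells in transplant library 2 and 0.877% in raised-flow library 2, against 10.6% to 21.1% in the other 4 libraries. T-like cells made up 3.48% and 5.20% there, against 16.4% to 34.2% elsewhere. In transplant library 2, 37.6% of cells lay in clusters that received no name, mostly in one led by Pf4, Gpnmb, Arg1 and Cxcl3. Values without the libraries numbered 2 are therefore given beside the calls that end without them. Where leaving them out adds calls, the number of genes called is given. Cell types are called "like" a type because they were rebuilt here from marker genes. The BEC-like cells, summed over their clusters, held Krt7 at 792 to 2435 counts per 1000000 UMIs of the summed cells (CPM), Epcam at 1303 to 2486 CPM and Krt19 at 124 to 202 CPM in the 6 libraries. A small cluster among them, led by hemoglobin genes such as Hba-a1 and Hba-a2, had 5 of the 12 BEC markers detected. It held 1.8% to 10.16% of the BEC-like cells of these libraries.

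Of the shares of cell types, that of tuft-like cells had the smallest edgeR p, and its difference rested on the libraries numbered 1 and 3. Tuft-like cells made up 0.241%, 0.0136% and 0.398% of the cells of transplant libraries 1, 2 and 3 (32, 1 and 54 cells). In the raised-flow arm they made up 2.44%, 0.0240% and 3.51% (301, 2 and 253 cells). Both raised-flow libraries with more than 2 tuft-like cells lay above all transplant libraries, while library 2 was near 0 in either arm. The 95% Wilson intervals, which cover counting error only, were 0.171% to 0.340% and 0.305% to 0.519% in transplant libraries 1 and 3, and 2.19% to 2.73% and 3.11% to 3.96% in raised-flow libraries 1 and 3. In sham libraries the share was 21.2%, 7.59% and 5.42%. The log2 difference of the share, raised flow minus transplant, was 3.17 ± 1.44 (SE), with an edgeR quasi-likelihood p of 0.0496 and a Benjamini-Hochberg adjusted p of 0.743 over 15 cell types. With the library number as a replicate block the adjusted p was 0.0142, without the libraries numbered 2 it was 0.0134, and without raised-flow library 2 alone it was 0.0196. With any other single library left out it was 0.260 to 0.845. With TMM scaling factors, doublets removed, a mitochondrial limit of 10% or Leiden resolution 2 it was 0.376 to 0.715. The block assumes that equal numbers pair libraries of the arms, which no label states. The two-sided exact permutation p over the 3 against 3 libraries was 0.3, where 0.1 is the smallest value possible.

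**Figure D1:**
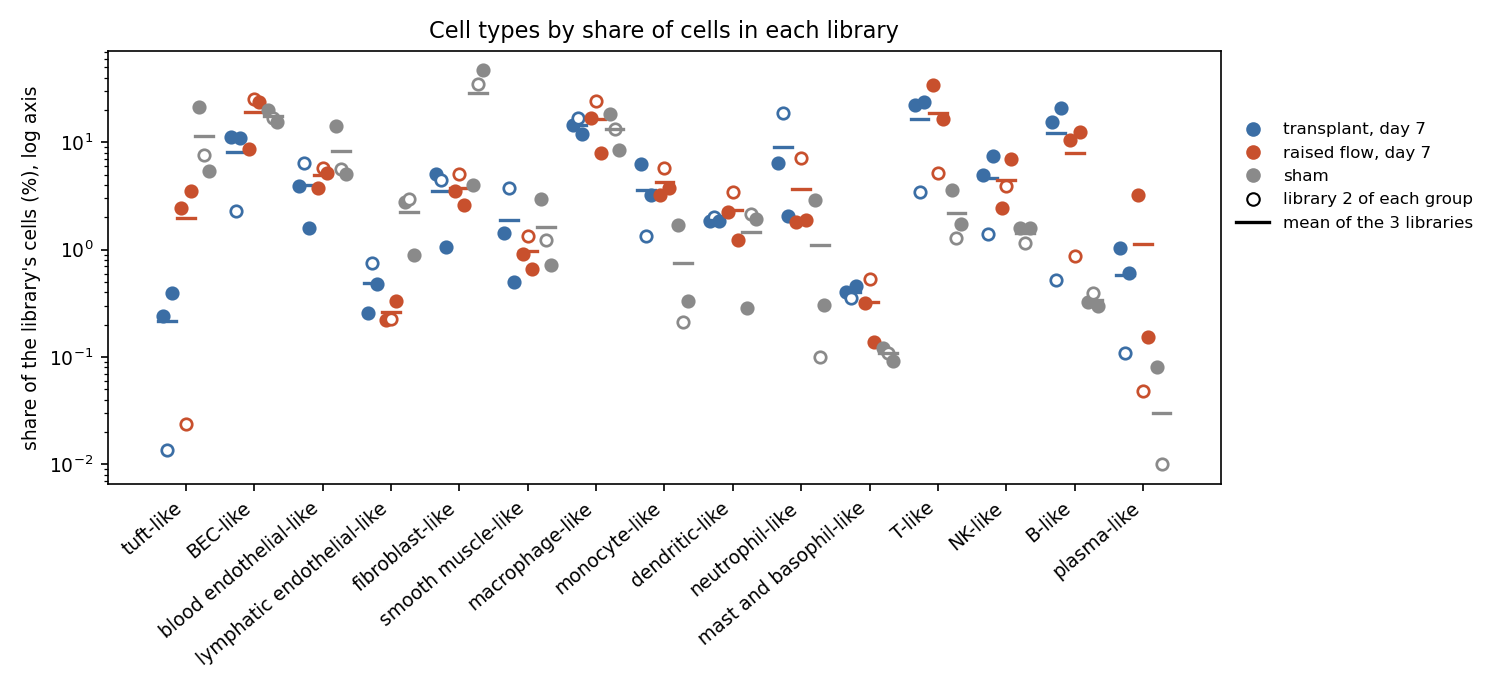
Share of each library's cells (%, log axis) for 15 marker-named cell types on day 7 in the transplant arm (blue), the raised-flow arm (orange) and sham (grey). Each point is 1 library, open circles are the libraries numbered 2, bars are means of the 3 libraries, and a share of 0 is not drawn. Raised-flow libraries 1 and 3 held 2.44% and 3.51% tuft-like cells, above the transplant libraries, while library 2 held fewer than 0.03% in either arm.

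Without the replicate block no cell type was called by its share over the 6 libraries (0 of 15, 0.0% called), and with it the tuft-like cells were (1 of 15, 6.67%). The smallest exact permutation p was that of lymphatic endothelial-like cells, at 0.2, with 0.256%, 0.748% and 0.479% in the transplant arm and 0.219%, 0.228% and 0.333% in the raised-flow arm, and these arms overlapped (log2 difference -0.92, edgeR adjusted p = 0.901). BEC-like cells made up 11.3%, 2.27% and 10.99% of cells in the transplant arm and 8.64%, 25.4% and 24.0% in the raised-flow arm, against 20.2%, 17.0% and 15.5% in sham. The arms overlapped in this share (log2 difference 1.24, adjusted p = 0.901 by edgeR). Neutrophil-like cells made up 6.40%, 18.6% and 2.04% in the transplant arm and 1.83%, 7.22% and 1.87% in the raised-flow arm, also with overlap (log2 difference -1.31, adjusted p = 0.901). Among epithelial cells alone, tuft-like cells were 2.09%, 0.595% and 3.49% of tuft-like and BEC-like cells in the transplant arm and 22.1%, 0.0944% and 12.8% in the raised-flow arm, against 51.2%, 30.8% and 25.8% in sham. Within the BEC-like cells, a cluster led by Gkn3, Agr2, Lcn2 and Mmp7 held 43.3%, 65.3% and 76.0% in the transplant arm and 60.2%, 82.2% and 83.6% in the raised-flow arm, against 12.3% to 14.96% in sham. None of the 12 BEC markers was among the 10 genes of that cluster with the largest fold over all other cells, although all 12 were detected in it. A second cluster, led by Lypd8, Tff1, Wfdc21 and Fcgbp, held 51.6%, 19.2% and 17.0% against 29.2%, 6.90% and 12.7%. Another cluster, led by Akr1c15, Scgb1c1 and Ttr, held 34.8%, 64.0% and 71.8% of the BEC-like cells of sham. It held 0.4% to 6.59% of those of the day 7 libraries.

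Summed over all cells, no gene passed the threshold of an adjusted p under 0.05 (0 of 14817 genes, 0.0%), also with DESeq2, and 193 genes (1.3%) had an unadjusted p under 0.05, of which 112 were higher (0.756%) and 81 lower (0.547%) with raised flow. In these sums, fewer cells of a type and less RNA per cell cannot be told apart. Of genes at 10 CPM or more with a positive log2 difference, Ltc4s, leukotriene C4 synthase, had the smallest p. It stood at 6.71, 1.27 and 7.02 CPM in transplant libraries and 30.7, 16.5 and 54.3 CPM in raised-flow libraries. All 3 raised-flow libraries lay above all 3 transplant libraries, as for 3.79% of the genes tested (log2 difference 2.56 ± 0.635, SE; edgeR adjusted p = 1), and sham libraries stood at 351, 75.4 and 57.7 CPM. Rgs13, a G protein regulator that led the tuft-like cluster, stood at 4.01, 0.607 and 5.94 CPM against 41.6, 3.27 and 54.5 CPM, with raised-flow library 2 below transplant libraries 1 and 3 (log2 difference 3.03 ± 1.07, adjusted p = 1, and 0.0664 without the libraries numbered 2). Gng13, a taste-signalling G protein subunit, stood at 5.16, 2.32 and 7.15 CPM against 12.3, 9.05 and 26.8 CPM, without overlap (log2 difference 1.49 ± 0.476). Of 16 tuft genes tested, 13 had a positive and 3 a negative log2 difference, none was called, 5 had an unadjusted p under 0.05, and the median was 1.39 against 0.02 over all genes tested. Raised-flow library 2 held Ltc4s and Gng13 above transplant libraries 1 and 3 at a lower share of tuft-like cells, and the part of that share in the list was not tested.

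Plvap, the protein of the diaphragms of fenestrated endothelium, stood at 115, 87.7 and 59.7 CPM in the transplant arm and 172, 187 and 222 CPM in the raised-flow arm, without overlap (log2 difference 0.95 ± 0.247, SE; edgeR adjusted p = 1). Cxcl9 and Cxcl11, interferon-induced ligands of the chemokine receptor Cxcr3 on T cells, had the smallest p among the 30 chemokines tested. Cxcl9 stood at 318, 108 and 222 CPM against 450, 535 and 579 CPM (log2 difference 1.11 ± 0.328), and 3.27 to 16.6 CPM in sham. Cxcl11 stood at 88.5, 51.9 and 143 CPM against 225, 265 and 220 CPM (log2 difference 1.15 ± 0.361), and 1.40 to 2.86 CPM in sham. For both, every raised-flow library lay above every transplant library, as for 3.79% of the genes tested over all cells, and both arms lay above sham. Gast, the hormone gastrin, stood at 1.16, 0.607 and 0.493 CPM against 188, 0.855 and 12.3 CPM (log2 difference 6.41 ± 1.86), so a single raised-flow library held most of its UMIs. An unnamed cluster led by Ins2, Ins1, Gast and Gcg held 43, 8 and 95 cells in the transplant arm and 84, 43 and 227 in the raised-flow arm. The centriolar gene Tedc1 and the cytoskeletal gene Nav2 had log2 differences of 0.84 and 1.19.

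On the other side, RT1-CE10, a class I gene, stood at 1773, 1507 and 2402 CPM in the transplant arm and 906, 580 and 1466 CPM in the raised-flow arm, without overlap, as for 0.621% of the genes tested in that direction (log2 difference -1.18 ± 0.332, SE; edgeR adjusted p = 1), and 159 to 409 CPM in sham. Slc16a3, the lactate exporter, stood at 25.6, 42.6 and 25.9 CPM against 16.8, 19.99 and 16.9 CPM (log2 difference -1.03 ± 0.316). Ca4, a membrane-bound carbonic anhydrase, stood at 3.91, 110 and 3.90 CPM against 0.405, 1.99 and 1.49 CPM, so transplant library 2 held most of its UMIs. The raft protein Flot1 had a log2 difference of -0.80, the lymphocyte transcription regulator Zfat -0.85, the tight junction protein Cldn5 -1.32, the ribosomal protein gene Rpl39 -1.03 and the pancreatic protease Ctrb1 -2.80. Rpl39 and Cldn5 overlapped between the arms, as did Ctrb1.

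The lists of genes by function held no called member over all cells, and several of their medians moved when the libraries numbered 2 were left out. The 16 biliary lineage factors all had positive log2 differences, with a median of 0.70, and 0.29 without the libraries numbered 2. Of 20 biliary keratins and junction genes 18 were positive, with a median of 0.50, and 0.10 without those libraries. Of 15 neutrophil granule and receptor genes 13 were negative, with a median of -1.84, and -0.997 without them. The part of the shares of BEC-like and neutrophil-like cells in these medians was not tested. Of 18 resident macrophage genes 16 were negative, with a median of -0.86, and of 30 interferon-stimulated genes 22 were negative, with a median of -0.61. The 30 genes of selenoproteins and selenium enzymes split into 12 positive and 18 negative, with a median of -0.10. Of these, Gpx2, the epithelial glutathione peroxidase, alone had an unadjusted p under 0.05 (log2 difference 0.75).

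In BEC-like cells, no gene was called (0 of 12275, 0.0%), and 167 genes (1.36%) had an unadjusted p under 0.05, of which 69 had a positive and 98 a negative log2 difference. DESeq2 called 5 genes, namely Calcb, Ltc4s, Pinlyp, S100g and Sprr1a. Pinlyp, an inhibitor of phospholipase A2, stood at 47.4, 64.2 and 46.4 CPM in the transplant arm and 16.8, 9.09 and 11.7 CPM in the raised-flow arm (log2 difference -2.18 ± 0.309, SE; edgeR adjusted p = 0.978). Calcb, the beta form of the calcitonin gene-related peptide, stood at 53.0, 73.7 and 119 CPM against 18.9, 23.4 and 29.6 CPM (log2 difference -1.88 ± 0.305, adjusted p = 1). For both genes the arms did not overlap, as for 1.24% of the genes tested in the same direction. Sham held 10.9 to 15.1 CPM of Pinlyp and 9.17 to 15.2 CPM of Calcb, and the raised-flow libraries lay nearer to these values. The BEC-like cells of sham were made up of other shares of the clusters, and the part of this in the sham levels was not tested. In the Gkn3-led cluster alone the log2 differences were -1.55 for Pinlyp and -2.28 for Calcb, and in the Lypd8-led cluster alone they were -2.25 and -0.98. S100g, a calcium-binding protein, stood at 191, 360 and 42.6 CPM against 41.1, 40.7 and 29.5 CPM. Sprr1a, a protein of the cornified envelope, stood at 16.6, 19.5 and 6.42 CPM against 3.54, 1.11 and 2.10 CPM. The log2 difference of Sprr1a was -2.73 over the BEC-like cells, -2.45 in the Lypd8-led cluster and -0.08 in the Gkn3-led cluster.

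Among genes at 10 CPM or more with a positive difference in BEC-like cells, Ltc4s again had the smallest p. It stood at 6.94, 2.63 and 11.3 CPM in the transplant arm, 22.9, 52.4 and 27.6 CPM in the raised-flow arm and 61.4, 38.8 and 24.2 CPM in sham (log2 difference 2.10 ± 0.455, SE; edgeR adjusted p = 1). The arms did not overlap, as for 4.18% of the genes tested in the same direction, and raised-flow library 2 held the highest level of the 6. In the Gkn3-led cluster alone the log2 difference was 1.65. Dctd, a deaminase of the nucleotide pathway, stood at 5.84, 5.79 and 7.72 CPM against 10.8, 15.4 and 16.2 CPM, and Basp1, a membrane-bound signalling protein, at 11.3, 7.37 and 11.2 CPM against 18.4, 17.2 and 19.8 CPM. Their log2 differences were 1.01 and 0.75 over the BEC-like cells and 0.85 and 0.34 in the Gkn3-led cluster alone. Of 12 tuft genes tested in BEC-like cells, 10 were positive, with a median of 0.76.

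The genes that the study follows in BEC, namely Crem, Vim, Cdh1 and Cdh2, showed no detectable difference in BEC-like cells. Crem, a cAMP-responsive transcription factor, stood at 38.3, 47.4 and 115 CPM in the transplant arm and 57.5, 80.7 and 70.3 CPM in the raised-flow arm (log2 difference -0.05 ± 0.376, SE; edgeR adjusted p = 1). The mesenchymal filament gene Vim stood at 116, 322 and 205 CPM against 200, 275 and 60.4 CPM (log2 difference -0.39 ± 0.601). The epithelial cadherin Cdh1 stood at 538, 347 and 375 CPM against 401, 393 and 342 CPM (log2 difference -0.26 ± 0.242), and the neural cadherin Cdh2 at 2.52, 3.69 and 2.42 CPM against 2.07, 3.15 and 3.59 CPM (log2 difference -0.02 ± 0.431). The arms overlapped for all 4 genes. Over all cells the log2 difference was -0.29 ± 0.343 for Crem and -0.77 ± 0.528 for Vim.

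Of 31 hypoxia-inducible factor (HIF) targets and glycolytic genes in BEC-like cells, 24 were negative and 7 positive, 4 had an unadjusted p under 0.05 and all of these were negative, as were 0.798% of the genes tested there, and the median was -0.22 with none called. Slc16a3 stood at 37.0, 34.8 and 30.1 CPM in the transplant arm and 17.0, 24.8 and 19.1 CPM in the raised-flow arm, without overlap, against 7.29 to 14.8 CPM in sham (log2 difference -0.86 ± 0.225, edgeR adjusted p = 1). In the Lypd8-led cluster alone its log2 difference was 0.12. Ldha, lactate dehydrogenase A, stood at 446, 807 and 574 CPM against 513, 306 and 337 CPM, with overlap. The 16 targets of the antioxidant regulator NRF2 were all negative, with a median of -0.46, but the median was 0.01 without the libraries numbered 2. The 28 selenoprotein and selenium enzyme genes had a median of -0.11, with 10 positive and 18 negative. Gpx2 stood at 3227, 8178 and 4191 CPM against 4148, 4757 and 4036 CPM, with overlap.

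Blood endothelial-like cells made up 1.58% to 6.44% of the transplant libraries and 3.74% to 5.83% of the raised-flow libraries. With edgeR no gene was called (0 of 9003, 0.0%), 341 genes (3.79%) had an unadjusted p under 0.05, and 7 genes (0.0778%) were called with the library number as a block. DESeq2 called 13 genes, 1 higher and 12 lower, and edgeR without the filter on low counts also called 13. Abcb4, a phospholipid exporter, stood at 11.8, 7.21 and 9.70 CPM in the transplant arm and 34.6, 48.7 and 40.9 CPM in the raised-flow arm (log2 difference 2.08 ± 0.265, SE; edgeR adjusted p = 0.114, and 0.0272 with the block). The arms did not overlap, and of the 6 libraries raised-flow library 2 alone lay within the sham range of 44.0 to 64.3 CPM. Abcg2, an efflux transporter, stood at 14.4, 7.21 and 6.71 CPM against 31.7, 27.8 and 27.2 CPM (log2 difference 1.54, adjusted p = 0.595, and 0.0929 with the block). Maob, the monoamine oxidase B gene, stood at 7.98, 5.52 and 8.21 CPM against 26.2, 18.4 and 20.4 CPM (log2 difference 1.58, adjusted p = 0.595, and 0.0975 with the block). Both lacked overlap between the arms, as did 4.11% of the genes tested there in the same direction.

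Other genes, chosen after their values were seen, had negative differences in these cells. Mrc1, the mannose receptor, stood at 40.8, 71.7 and 16.4 CPM in the transplant arm and 3.75, 1.64 and 0.454 CPM in the raised-flow arm (log2 difference -4.35 ± 0.749, SE; edgeR adjusted p = 0.595, and 0.00668 with the block). Lyve1, a hyaluronan receptor, stood at 76.3, 107 and 21.6 CPM against 10.7, 5.32 and 3.63 CPM (log2 difference -3.36, adjusted p = 0.718, and 0.0105 with the block). Fcgr2b, the inhibitory Fc receptor, stood at 44.3, 103 and 20.1 CPM against 6.06, 3.28 and 2.27 CPM (log2 difference -3.82, adjusted p = 0.595, and 0.0272 with the block). For Mrc1, Lyve1 and Fcgr2b every raised-flow library lay below every transplant library, as for 3.39% of the genes tested there. Oit3, expressed in sinusoidal endothelium, had 105 UMIs in the transplant arm and 6 in the raised-flow arm (log2 difference -4.25, adjusted p = 0.595, and 0.0272 with the block). The 10 resident macrophage genes tested in these cells were all negative, with a median of -1.27, and their list summed to 549, 964 and 609 CPM in the transplant arm and 297, 328 and 122 CPM in the raised-flow arm. The macrophage gene C1qa stood at 121, 140 and 156 CPM against 86.8, 62.2 and 17.7 CPM. The part of other cell types in these values was not tested.

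Of 28 shear-responsive endothelial genes in blood endothelial-like cells, 13 were positive and 15 negative, none was called, and the median was -0.01. The flow-responsive factor Klf2 stood at 59.3, 56.0 and 39.5 CPM in the transplant arm and 59.7, 42.6 and 55.9 CPM in the raised-flow arm (log2 difference -0.01). Its relative Klf4 stood at 307, 312 and 514 CPM against 460, 389 and 655 CPM (log2 difference 0.37), and endothelial nitric oxide synthase, Nos3, at 95.4, 115 and 101 CPM against 106, 114 and 114 CPM (log2 difference 0.07). All 3 genes overlapped between the arms. Vcam1, a leukocyte adhesion molecule, stood at 62.5, 43.3 and 91.8 CPM against 180, 184 and 117 CPM, without overlap (log2 difference 1.295 ± 0.306, SE; edgeR adjusted p = 0.637). Plvap stood at 1684, 1032 and 1808 CPM against 2895, 2198 and 2997 CPM, without overlap (log2 difference 0.81, adjusted p = 0.979). Cxcl9 stood at 1411, 849 and 2551 CPM against 3436, 3327 and 4235 CPM (log2 difference 1.17, adjusted p = 1), again without overlap. In macrophage-like cells Cxcl9 stood at 148, 54.6 and 282 CPM against 306, 307 and 525 CPM, and in BEC-like cells at 206, 20.5 and 199 CPM against 216, 98.6 and 227 CPM.

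**Figure D2:**
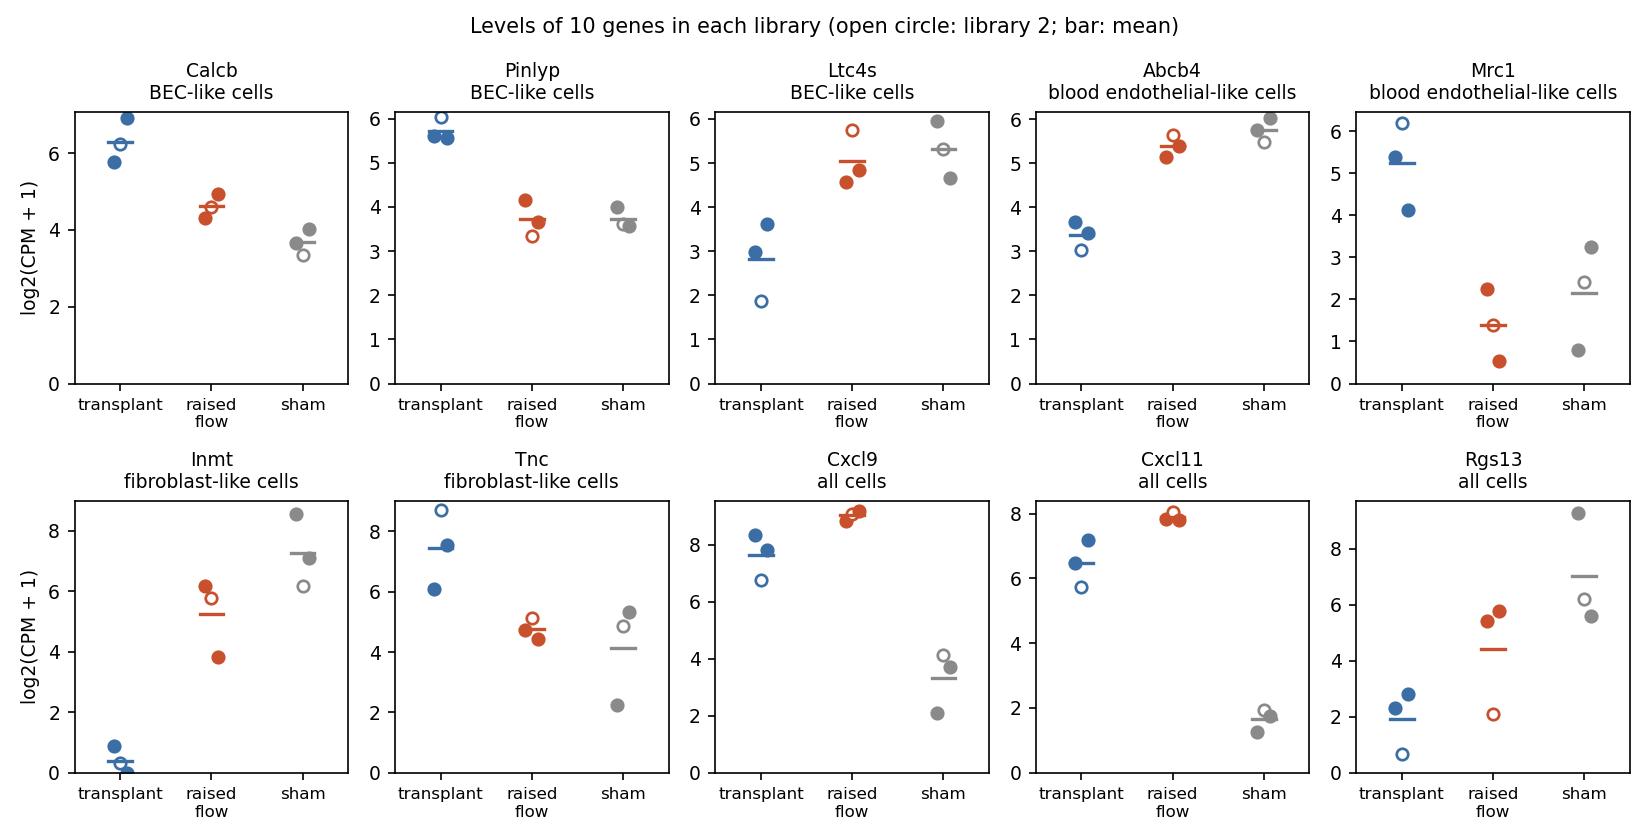
Levels of 10 genes, as log2(CPM + 1), in the BEC-like, blood endothelial-like, fibroblast-like or all cells of each library on day 7. Each point is 1 library of the transplant arm (blue), the raised-flow arm (orange) or sham (grey), open circles are the libraries numbered 2, and bars are means of the 3 values. Calcb, Pinlyp, Mrc1 and Tnc were lower and Ltc4s, Abcb4, Inmt, Cxcl9 and Cxcl11 higher in all 3 raised-flow libraries than in any transplant library, none past the threshold with edgeR over the 6 libraries without the block, while Rgs13 overlapped.

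Over the 11 cell types with at least 20 cells in each library, 7 calls were made in 4 types, 1 higher and 6 lower, and 4 of the 6 lower calls were RT1-CE10. With the block, 12 genes were called in B-like cells (0.152%), 3 in T-like (0.0294%), 2 in NK-like (0.0273%), 8 in monocyte-like (0.145%), 5 in macrophage-like (0.0483%) and 14 in dendritic-like cells (0.2%). In B-like cells it stood at 2093, 1754 and 1922 CPM in the transplant arm and 551, 395 and 712 CPM in the raised-flow arm (log2 difference -1.92 ± 0.287, SE; edgeR adjusted p = 1.99e-07, among 4 of 7910 genes called, 0.0506%). In T-like cells it stood at 2337, 2007 and 2161 CPM against 613, 366 and 665 CPM (log2 difference -2.09 ± 0.228, adjusted p = 0.00837, the only call among 10209 genes, 0.0098%). In NK-like cells it stood at 2560, 2013 and 2462 CPM against 593, 443 and 838 CPM (log2 difference -1.97 ± 0.227, adjusted p = 0.00893, the only call among 7318 genes, 0.0137%). RT1-CE10 fell in these types by a similar amount, and the arms were far apart in each. In monocyte-like cells it stood at 4651, 4776 and 4440 CPM against 1189, 1018 and 1613 CPM (log2 difference -2.00 ± 0.213, adjusted p = 0.000951, the only call among 5536 genes, 0.0181%). The name of this type rests on 3 of 8 monocyte markers detected, the fewest that the naming rule allowed, and no marker was among its leading genes. Sham libraries varied more, from 223 to 682 CPM in B-like cells, 332 to 1509 CPM in T-like cells, 165 to 1115 CPM in NK-like cells and 660 to 3664 CPM in monocyte-like cells. They held few of these cells, with 8 to 39 B-like, 88 to 207 T-like, 39 to 190 NK-like and 21 to 42 monocyte-like cells per library. Their values thus carry a large counting error. Without the libraries numbered 2, 3 genes were called in T-like cells (0.0269%), where the adjusted p of RT1-CE10 was 0.00183, and it was 0.0795 in B-like, 0.118 in NK-like and 0.288 in monocyte-like cells, with log2 differences of -1.91, -1.92 and -1.88. The call in T-like cells was also lost without raised-flow library 1 (0.0515) or raised-flow library 3 (0.114), at log2 differences of -2.18 and -2.20, that in NK-like cells without transplant library 3 (0.0522), and that in monocyte-like cells when cells were clustered at Leiden resolution 2 (log2 difference -1.87, adjusted p = 0.62). With sham in the fit the calls in T-like, NK-like and monocyte-like cells were lost at adjusted p of 0.999 or above, with log2 differences of -2.10, -1.96 and -1.99.

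In macrophage-like cells RT1-CE10 stood at 2840, 2523 and 2774 CPM in the transplant arm and 776, 566 and 1308 CPM in the raised-flow arm, and in dendritic-like cells at 2314, 1539 and 2702 CPM against 625, 410 and 974 CPM. Neither passed the threshold with edgeR (log2 differences -1.79 and -1.82, adjusted p = 0.563 and 0.303), and both passed it with the replicate block (0.018 and 5.42e-06). With edgeR and no block, no gene was called in either type (0 of 10359 and 0 of 7004, 0.0% each), while DESeq2 called 3 and 1 and edgeR without the filter on low counts called 1 and 13. In neutrophil-like cells the arms overlapped, at 1218, 2137 and 3083 CPM against 999, 684 and 1333 CPM (log2 difference -1.41). Thus in 6 of 7 immune types the raised-flow libraries all lay below the transplant libraries, where 0.733% to 2.42% of the genes tested in these 7 types did so.

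The cells of the tissue itself gave another picture. After LT the bile duct belongs to the donor graft, while immune cells may come from donor or recipient. RT1 genes differ between animals, and the part of donor and recipient genotype in this contrast was not tested. In BEC-like cells RT1-CE10 stood at 867, 552 and 2534 CPM in the transplant arm and 1511, 603 and 1936 CPM in the raised-flow arm (log2 difference -0.04). In blood endothelial-like cells it stood at 779, 1412 and 3133 CPM against 2199, 830 and 2468 CPM (log2 difference 0.00), and in fibroblast-like cells at 408, 410 and 2599 CPM against 1063, 567 and 1884 CPM (log2 difference 0.03). In each of these types the arms overlapped and transplant library 3 was the highest. The log2 ratio of RT1-CE10 in the summed immune cells to that in the summed tissue cells was 1.92, 1.88 and -0.08 in the transplant arm, -1.14, -0.20 and -1.10 in the raised-flow arm and 1.28, 2.40 and 2.19 in sham. Every raised-flow library lay below every transplant library in this ratio, but transplant library 3 and raised-flow library 2 were only narrowly apart. The ratio is given without a test, since RT1-CE10 was chosen for its calls in immune cells. In a fit over all genes with each library as a block, the immune arm difference minus the tissue arm difference was -2.17 ± 0.558 (SE; edgeR adjusted p = 1 over 14078 genes, 0 called, 0.0%).

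**Figure D3:**
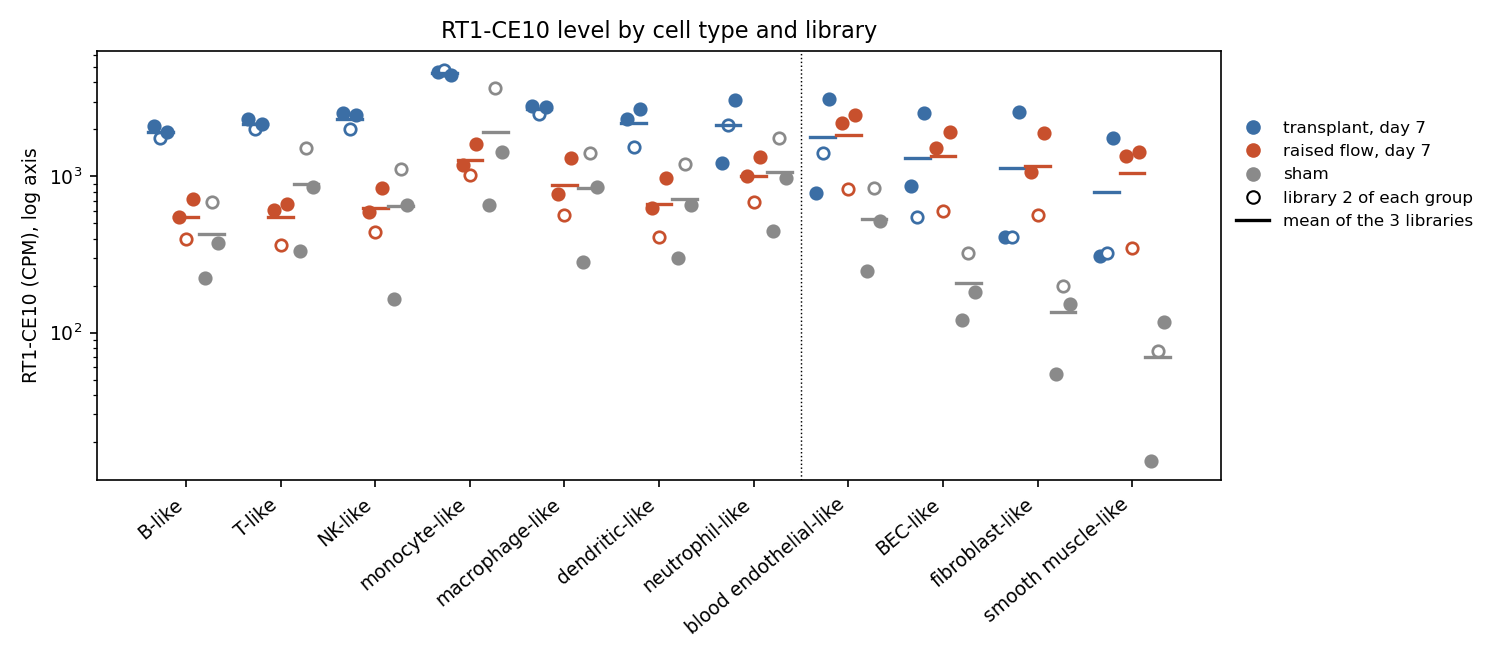
Level of RT1-CE10 (CPM, log axis) in 11 cell types of each library on day 7, with immune types left and tissue types right of the dotted line. Points are libraries of the transplant arm (blue), the raised-flow arm (orange) and sham (grey), open circles are the libraries numbered 2, and bars are means of the 3 libraries. The arms are apart in B-like, T-like, NK-like, monocyte-like, macrophage-like and dendritic-like cells, and overlap in neutrophil-like cells and in the 4 tissue types.

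Other RT1 genes went either way in immune cells. Of the genes tested from the list of class I and immunoproteasome genes, 6 had a positive and 9 a negative log2 difference in B-like cells, 4 and 11 in monocyte-like cells and 8 and 9 in macrophage-like cells. RT1-T24-4, a class I gene, stood at 187, 583 and 294 CPM in the monocyte-like cells of the transplant arm and 752, 1724 and 954 CPM in those of the raised-flow arm (log2 difference 1.62, edgeR adjusted p = 0.999, and 0.00138 with the block). In macrophage-like cells it stood at 136, 235 and 104 CPM against 367, 671 and 438 CPM (log2 difference 1.51, adjusted p = 0.998, and 0.018 with the block), and in B-like cells at 91.8, 217 and 103 CPM against 266, 553 and 238 CPM (log2 difference 1.42, adjusted p = 0.11, and 0.0301 with the block). In these 3 types the arms did not overlap, and 6.47%, 5.5% and 7.56% of the genes tested in them lay wholly higher with raised flow. With the block RT1-T24-4 was also called in NK-like cells (adjusted p = 0.0335) and dendritic-like cells (adjusted p = 0.0122). The log2 difference of RT1-T24-4 was 0.06 in BEC-like cells. RT1-A1, a classical class I gene, stood at 703, 1193 and 1246 CPM against 2236, 1594 and 2143 CPM in B-like cells (log2 difference 0.84, adjusted p = 0.863), and was called with the block in dendritic-like cells (adjusted p = 0.014). RT1-Bb, a class II beta chain gene, stood at 2445, 1121 and 652 CPM against 5867, 4971 and 3285 CPM in macrophage-like cells (log2 difference 1.68, adjusted p = 0.998, and 0.021 with the block) and at 1097, 1808 and 321 CPM against 2919, 2169 and 1901 CPM in B-like cells (log2 difference 1.11, adjusted p = 0.0793, and 5.19e-05 with the block). RT1-N2 fell in B-like cells, at 47.5, 0 and 31.6 CPM against 6.79, 0 and 8.21 CPM (log2 difference -2.56, adjusted p = 0.002). Without the libraries numbered 2 the adjusted p was 0.0795, at a log2 difference of -2.64. The call was also lost without transplant library 1 (0.461) or raised-flow library 1 (0.0538) and with DESeq2, at log2 differences of -2.12, -2.60 and -2.51. Class I RT1 genes are near-identical and differ between animals of an outbred stock, so counts assigned to single RT1 genes are uncertain, and different animals and different regulation cannot be told apart here. The class II list had medians of -0.20 over 5 class II genes in monocyte-like cells, 0.00 over 10 in macrophage-like cells and -0.27 over 9 in B-like cells.

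The other 2 calls were in B-like cells, and each was lost with DESeq2 and when single libraries were left out. Cxcl13, the B cell attractant, rose, at 8.39, 0 and 3.66 CPM in the transplant arm and 10.5, 7.18 and 74.8 CPM in the raised-flow arm (log2 difference 2.40 ± 0.523, SE; edgeR adjusted p = 0.0125). Its log2 difference was 2.55 without the libraries numbered 2 and 2.32 with DESeq2, uncalled in both cases. Slpi, a secreted protease inhibitor of epithelium and neutrophils, fell, at 62.2, 163 and 168 CPM against 59.1, 28.7 and 18.7 CPM (log2 difference -1.80 ± 0.398, adjusted p = 0.013). Its log2 difference was -1.78 without the libraries numbered 2 and -1.86 with DESeq2, again uncalled. In barcodes without cells, Slpi stood at 770, 7651 and 2060 CPM against 751, 1556 and 723 CPM and Cxcl13 at 87.1, 39.2 and 77.3 CPM against 98.1, 87.0 and 173 CPM. With the empty-barcode profile subtracted, 4 of 7400 genes were called in B-like cells, 2 higher and 2 lower. That fit took a fixed 10% of the UMIs as free RNA, so it cannot show the part of free RNA in these calls. The call for Cxcl13 was lost without transplant library 2, transplant library 3 or raised-flow library 3, with a log2 difference of 0.63 in the last case. It was also lost with doublets removed (log2 difference 1.23) and at Leiden resolution 2 (log2 difference 1.77, adjusted p = 0.844). The call for Slpi was lost without library 2 or 3 of either arm, with log2 differences of -1.29 to -1.82.

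In T-like cells, interferon gamma, Ifng, stood at 32.8, 18.6 and 16.7 CPM in the transplant arm and 39.6, 80.8 and 39.3 CPM in the raised-flow arm, without overlap, as for 3.64% of the genes tested in that direction (log2 difference 1.15 ± 0.384, SE; edgeR adjusted p = 1). The 14 cytotoxic effector genes tested there had a median of 0.19, with 9 positive. The interferon-stimulated genes had negative medians in all 7 immune types, from -0.43 in monocyte-like to -0.90 in T-like cells, with no member called. In T-like cells 21 of 26 such genes were negative, in NK-like cells 21 of 26, in dendritic-like cells 20 of 26 and in B-like cells 19 of 26. In NK-like cells 135 genes (1.84%) had an unadjusted p under 0.05, and of these Lgals1, galectin 1, stood at 289, 210 and 275 CPM against 558, 476 and 395 CPM, without overlap, as for 3.44% of the genes tested in that direction (log2 difference 0.85 ± 0.231, adjusted p = 1).

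In monocyte-like cells Anxa3, a phospholipid-binding annexin, stood at 58.2, 103 and 82.7 CPM in the transplant arm and 22.2, 11.99 and 28.7 CPM in the raised-flow arm (log2 difference -2.00 ± 0.343, SE; edgeR adjusted p = 0.111, and 0.0151 with the block). Cxcl16, a membrane-bound chemokine, stood at 100, 131 and 212 CPM against 49.2, 15.99 and 26.4 CPM (log2 difference -2.40 ± 0.476, adjusted p = 0.999). Both lacked overlap between the arms, as did 1.23% of the genes tested there in the same direction. In macrophage-like cells 16 of 18 resident macrophage genes were negative, 4 of them with an unadjusted p under 0.05, with a median of -0.77 against 0.00 over all 10359 genes tested there, of which 112 (1.08%) were lower at an unadjusted p under 0.05. Among them were Folr2, the folate receptor of resident macrophages, at 282, 323 and 329 CPM against 219, 172 and 234 CPM without overlap, as for 1.15% of the genes tested in that direction (log2 difference -0.73 ± 0.188, adjusted p = 0.998), and the hemoglobin scavenger receptor Cd163, at 93.6, 44.3 and 65.7 CPM against 50.7, 30.2 and 40.7 CPM with overlap. In dendritic-like cells Areg, a ligand of the epidermal growth factor receptor, stood at 28.6, 53.7 and 29.2 CPM against 10.5, 15.6 and 5.82 CPM, without overlap, as for 1.43% of the genes tested in that direction (log2 difference -1.78 ± 0.416, adjusted p = 1, and 0.0207 with the block).

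In neutrophil-like cells edgeR called no gene (0 of 3676, 0.0%) and 97 genes (2.64%) had an unadjusted p under 0.05. DESeq2 called 2 genes, both lower, and edgeR called 1 without raised-flow library 1 and 20 without the filter on low counts. Bnip3, a mitophagy receptor and HIF target, had the smallest p, at 50.8, 59.9 and 41.1 CPM in the transplant arm and 6.59, 4.77 and 8.13 CPM in the raised-flow arm (231 and 8 UMIs in all; log2 difference -3.38 ± 0.534, SE; edgeR adjusted p = 0.313, and 0.135 with the block). The glucose transporter Slc2a1 stood at 48.9, 61.4 and 38.9 CPM against 13.2, 20.3 and 28.5 CPM, and the glycolytic enzyme gene Pfkl at 65.5, 26.2 and 30.3 CPM against 16.5, 11.9 and 24.4 CPM. All 3 genes lacked overlap between the arms, and 1.01% of the genes tested there lay wholly lower with raised flow. Of 21 HIF targets and glycolytic genes tested in these cells, 20 were negative, with a median of -0.55, and 6 had an unadjusted p under 0.05, all negative, as had 1.47% of the genes tested there. Tap2, a peptide transporter of class I presentation, stood at 53.8, 28.1 and 23.8 CPM against 109, 95.3 and 97.6 CPM.

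In fibroblast-like cells edgeR called no gene (0 of 9988, 0.0%), 282 genes (2.82%) had an unadjusted p under 0.05, and DESeq2 called 5, 2 higher and 3 lower. With the block edgeR called 1 gene (0.01%). That gene was Inmt, the indolethylamine N-methyltransferase, at 0.847, 0.256 and 0 CPM in the transplant arm and 71.6, 54.1 and 13.2 CPM in the raised-flow arm, against 380, 71.0 and 137 CPM in sham (7 and 605 UMIs in the arms; log2 difference 6.39 ± 0.918, SE; edgeR adjusted p = 0.981, and 0.00122 with the block). Transplant libraries were thus near 0 and raised-flow libraries lay between them and sham, save that raised-flow library 1 lay slightly above the lowest sham library. The fibroblast-like cells of sham were made up of other clusters. One led by Dpep1, Tac3, Ogn and Gpc3 held 55, 1362 and 2679 cells in sham and 0 to 6 in each day 7 library. The part of this in the sham level of Inmt was not tested. Cxcl14, a chemokine, stood at 15.96, 20.5 and 18.7 CPM against 61.7, 56.2 and 37.1 CPM, without overlap, as for 3.61% of the genes tested in that direction (log2 difference 1.501 ± 0.271, adjusted p = 0.981). Tnc, the matrix protein tenascin C, stood at 67.2, 411 and 185 CPM against 25.6, 34.1 and 20.7 CPM, without overlap, as for 4.12% of the genes tested in that direction (log2 difference -3.06 ± 0.698, adjusted p = 0.981). Angptl4, an inhibitor of lipoprotein lipase, stood at 96.2, 164 and 144 CPM against 42.7, 35.4 and 84.2 CPM (log2 difference -1.38 ± 0.323). Without the libraries numbered 2, 1 gene (0.01%) was called, S100a9, a calprotectin subunit of neutrophils, at 64.5, 1437 and 70.2 CPM against 7.60, 896 and 6.89 CPM (log2 difference -3.21, adjusted p = 0.00782, against 0.983 over the 6 libraries). The part of other cell types in S100a9 was not tested. No collagen gene was called with edgeR over the 6 libraries. Col1a1, the main chain of type I collagen, stood at 12321, 18129 and 15709 CPM against 14284, 15012 and 13337 CPM, with overlap (log2 difference -0.13 ± 0.25). Of 17 collagen genes 12 were negative, with a median of -0.32, and of 30 matrix and fibrosis genes 21 were positive, with a median of 0.16.

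In smooth muscle-like cells edgeR called no gene (0 of 6426, 0.0%), 236 genes (3.67%) had an unadjusted p under 0.05, 7 genes (0.109%) were called with the block and 4 (0.0649%) without the libraries numbered 2. DESeq2 called 4 genes, 2 higher and 2 lower, and edgeR without the filter on low counts called 45. The cluster under this name had 7 vascular mural markers detected beside all 7 smooth muscle markers, and Rgs5 was first among its leading genes. Vascular mural and smooth muscle cells were not separated, and the part of their mix in the values below was not tested. Pln, phospholamban, a regulator of the muscle calcium pump, stood at 199, 56.9 and 108 CPM in the transplant arm, 478, 256 and 468 CPM in the raised-flow arm and 839, 667 and 613 CPM in sham (log2 difference 1.68 ± 0.403, SE; edgeR adjusted p = 0.756, and 0.0251 with the block). Aqp1, a water channel, stood at 17.6, 9.22 and 7.71 CPM against 63.1, 75.0 and 29.2 CPM (log2 difference 2.27, adjusted p = 0.601, and 0.0374 with the block). Col15a1, a basement membrane collagen, stood at 68.1, 347 and 44.3 CPM against 4.03, 10.7 and 0 CPM (log2 difference -4.77, adjusted p = 1, and 0.000462 with the block). None of the 3 genes overlapped between the arms, where 4.28% of the genes tested lay wholly higher and 3.95% wholly lower with raised flow. Apoe and Pf4, which macrophages also express, had log2 differences of -1.59 and -2.94 (adjusted p = 0.601 for both, and 0.0251 and 0.0452 with the block). The resident macrophage list summed to 770, 639 and 545 CPM in these cells of the transplant arm and 758, 426 and 460 CPM in those of the raised-flow arm, and its part in Apoe and Pf4 was not tested.

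Tuft-like cells were too few in the libraries numbered 2, so genes within them were compared between libraries 1 and 3 of each arm, with 32 and 54 cells against 301 and 253. This fit was chosen after seeing the data. Mitochondrial genes took a median of 14.2% and 13.5% of the UMIs of these cells in the transplant arm and 11.05% and 14.1% in the raised-flow arm, against 2.57% to 4.13% over all cells of the 6 libraries. Of 5047 genes, 4 were called (0.0793%), all of them lower with raised flow. Smpdl3a, a nucleotide phosphodiesterase, fell, at 158 and 200 CPM against 36.8 and 32.8 CPM (log2 difference -2.43 ± 0.439, SE; edgeR adjusted p = 0.00628), with 12.3 to 27.7 CPM in sham. Clca5, a chloride channel accessory protein, fell, at 290 and 419 CPM against 65.7 and 117 CPM (log2 difference -2.05 ± 0.41, adjusted p = 0.00971). At Leiden resolution 2 Clca5 was also a leading gene of a BEC-like cluster, and the part of BEC-like cells in its call was not tested. Lpl, lipoprotein lipase, fell, at 52.8 and 122 CPM against 15.8 and 6.57 CPM (log2 difference -3.08 ± 0.585, adjusted p = 0.00971). The 4th gene, Dbn1, an actin-binding protein, had 18 UMIs in the transplant libraries and 2 in the raised-flow libraries, a ratio of their levels of 0.0187 (95% counting interval 0.0021 to 0.0782). For each of these genes both raised-flow libraries lay below both transplant libraries, as they did for 14.4% of the genes tested. None of Smpdl3a, Clca5, Lpl and Dbn1 was called with DESeq2 (0 genes called), with log2 differences of -2.45, -2.06, -3.08 and -5.67, close to those with edgeR. At Leiden resolution 2, 1 gene was called, and Smpdl3a, the only one of the 4 tested there, had a log2 difference of -1.27. With a limit of 10% on mitochondrial UMIs, 5 and 11 cells were left against 126 and 51, 1740 genes were tested and none was called. Clca5 had a log2 difference of -1.81 there. Leaving out a library left 1 in its arm, which was then assumed to vary like the 2 of the other arm. Without transplant library 3 or either raised-flow library none of the 4 was called, with log2 differences of -2.08 to -2.44 for Smpdl3a, and without transplant library 1 all 4 were. Cd200, an inhibitory surface ligand, stood at 52.8 and 25.8 CPM against 176 and 194 CPM (log2 difference 2.31 ± 0.534, adjusted p = 0.0748), near the sham level of 139 to 149 CPM.

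Of 14 tuft genes tested within tuft-like cells, 11 had a positive and 3 a negative log2 difference, with a median of 0.56. None was called, and 4 had an unadjusted p under 0.05, all of them positive, against 164 of all genes tested (3.25%). Ltc4s stood at 2440 and 1785 CPM in transplant libraries 1 and 3 and 2397 and 2669 CPM in raised-flow libraries 1 and 3, with overlap (log2 difference 0.23 ± 0.295, SE; edgeR adjusted p = 0.998). Rgs13 stood at 2335 and 1560 CPM against 3247 and 2886 CPM (log2 difference 0.63 ± 0.298, adjusted p = 0.864), and these values did not overlap, as for 19.4% of the genes tested. The series names selenoamino acid metabolism of tuft cells as a subject, and of 17 selenoprotein and selenium enzyme genes tested there, 11 had a positive and 6 a negative log2 difference. None of the 17 was called or had an unadjusted p under 0.05, and their median was 0.22 against 0.00 over all genes tested. Selenok, a selenoprotein of the endoplasmic reticulum, stood at 660 and 393 CPM against 674 and 555 CPM, and Gpx2 at 950 and 773 CPM against 1144 and 1141 CPM (log2 differences 0.22 and 0.37). A difference in single selenium genes was not detectable at this depth.

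The same pair of arms was also sampled on day 1 post-LT. In a fit over the 12 libraries of both days, 1104 of 15488 genes (7.13%) were called on day 1, of which 601 were higher and 503 lower with raised flow. No gene was called for a difference between the days (0 of 15488, 0.0%), although 2791 genes (18.0%) had an unadjusted p under 0.05 for it. This fit was run without the replicate block only. Each day had its own transplant libraries. On day 1 the arms also differed in depth, with a median of 3152.5 to 3821 UMIs per cell in transplant libraries and 4874.5 to 7219 in raised-flow libraries. The transplant libraries of that day held 3178 to 6884 cells and the raised-flow libraries 7131 to 9838. The part of depth and of cell type shares in the values of day 1 was not tested. The 17 collagen genes had a median log2 difference of -0.59 on day 7 and 3.15 on day 1, when 9 of them were called higher. Biliary keratins and junction genes stood at 0.47 on day 7 and -1.79 on day 1, with 10 called lower on day 1, and tuft genes at 1.45 and -1.17, with 1 called lower on day 1. HIF targets and glycolytic genes had a median of -0.38 on day 7 and -1.58 on day 1, with 17 called lower on day 1, and interferon-stimulated genes -0.66 and -0.62 with none called. The medians of the collagen, keratin, biliary lineage, resident macrophage and tuft lists thus had opposite signs on the 2 days, and those of the HIF and interferon lists the same sign. The count of genes called for a difference between the days was unstable, with 602 called when transplant library 1 of day 1 was left out and 144 when transplant library 3 of day 7 was left out.

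**Figure D4:**
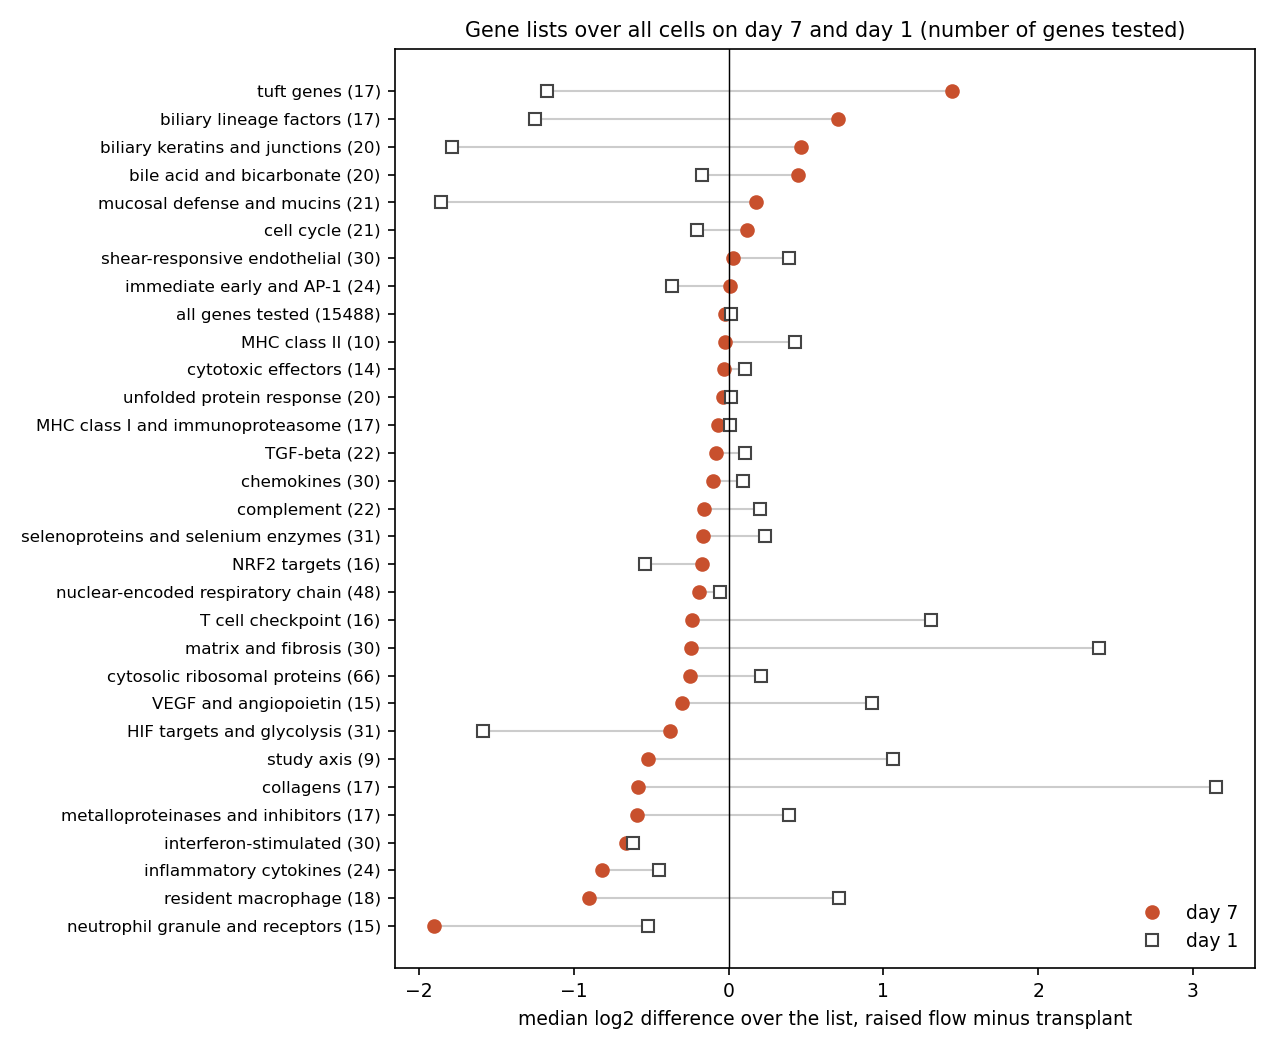
Median log2 difference over all cells, raised flow minus transplant, for 30 gene lists and for all genes tested on day 7 (filled circles) and day 1 (open squares), with the number of genes tested in parentheses. Tuft genes lie highest on day 7 at 1.45 and at -1.17 on day 1, and collagens lie at -0.59 on day 7 and 3.15 on day 1.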

How the data were processed

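The authors deposited raw UMI counts per gene and barcode for each library, without normalization and with empty barcodes. Their processing notes name Cell Ranger 5.0.1 and Seurat 3.2.0, and the genome build is not given in the sources used here. The members and gene lists were chosen with earlier results of these data known. Cells were filtered as stated in the report, and counts of features sharing a symbol were summed. The 86442 cells of day 7 and sham were clustered (2000 variable genes, leaving out genes of the tested lists that were not markers, 30 principal components, 20 neighbours, Leiden resolution 0.9; leidenalg 0.10.2) and named by marker lists, with the naming rule settled after leading genes and cluster sizes were seen. Markers of BEC did not count against tuft-like clusters, and doublets were kept. An alternative removed the 7.07% to 7.44% of cells with the highest doublet scores in each day 7 library. Other alternatives changed scaling, the filter on low counts, the mitochondrial limit, the clustering resolution, the replicate block and the libraries in the fit, or subtracted the profile of empty barcodes.

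UMI counts were summed per library and type and tested with edgeR 4.0.16 (TMM factors, filterByExpr, quasi-likelihood test, Benjamini-Hochberg adjustment over all genes of a fit, R 4.3.3), with DESeq2 1.42.0 as an alternative. Printed CPM are counts per 1000000 UMIs of the summed cells, without TMM factors. Shares of cells were tested with edgeR on cell numbers. Libraries with 1 number deviated together, with correlations of their deviations from the arm means of 0.176, 0.553 and 0.419 against -0.434 to 0.122 for unequal numbers, so the numbers were taken to pair the libraries. No label states this pairing, and it was read from the same counts that were then tested. Calls with the block therefore depend on an assumed pairing and are not independent support. Genes were named as those past the threshold or with the smallest p and at least 10 CPM, with Crem, Vim, Cdh1 and Cdh2. Other named genes came from the lists, from calls under an alternative, or were chosen after their values were seen. The test scripts were tested on simulated data. The libraries of day 3 entered no comparison and count only toward the cells of the whole series.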

Additional observations from a re-analysis of the deposited data

How the results depend on the processing

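Of 1478 alternative values for 94 gene and share results, 1336 kept their direction and side of the threshold, 75 newly passed it, 45 no longer passed it and 22 changed sign. Most of these results were not called in the first place and kept their side by staying uncalled. The 45 all concerned the 7 calls in cell types and the 4 calls in tuft-like cells, so the 1336 do not measure how stable the calls were. The count over all cells stayed at 0 under every alternative run. In BEC-like cells DESeq2 called 5 genes and the fit without a filter on low counts called 1. The 7 calls over 11 cell types became 59 with the replicate block (22 higher and 37 lower, in 9 types), 40 with DESeq2, 126 without the filter, 3 with sham in the fit, and 6 to 16 with single libraries left out, 16 without raised-flow library 1. The 4 calls in tuft-like cells became 18 without the filter, 7 with doublets removed, 1 at Leiden resolution 2, 0 with DESeq2, 0 with mitochondrial UMIs under 10%, and 2 to 68 with single libraries left out. For the shares of cell types, 1 was called with the block, 1 without the libraries numbered 2, and 0 to 1 with single libraries left out. For the difference between day 7 and day 1, leaving out single libraries gave 0 to 602 calls. The block also called Cldn5 in blood endothelial-like cells (log2 difference -1.33), and beyond these and the calls given in the report it changed no call of the gene and share results. The sign changes were all in differences that were not called. In BEC-like cells they concerned Crem (0.0469 when libraries were scaled by size only, 0.0909 with the replicate block, 0.0251 with doublets removed, -0.34 to 0.54 with single libraries left out), Vim (0.0827 with the empty-barcode profile subtracted, -0.83 to 0.12 with single libraries left out), Cdh2 (0.10 when scaled by size only, 0.15 without the libraries numbered 2, 0.003 with sham in the fit, 0.0242 with the empty-barcode profile subtracted, 0.13 in the Gkn3-led cluster alone, -0.17 to 0.19 with single libraries left out), Gpx2 (0.10 without the libraries numbered 2, -0.69 to 0.17 with single libraries left out) and Slc16a3 (0.12 in the Lypd8-led cluster alone). Over all cells Crem stood at 0.0711 with equal cell type shares and between -0.62 and 0.086 with single libraries left out, and with single libraries left out Col1a1 in fibroblast-like cells stood between -0.27 and 0.0553 and S100a9 there between -6.30 and 2.32. The alternatives without the libraries numbered 2, with single BEC-like clusters and within tuft-like cells were chosen after seeing the data, and the cause of these changes was not tested. With sparse types and libraries this uneven, modest changes were mostly not detectable. Simulated counts took the spread between libraries (dispersion) as estimated. Of genes changed 2-fold, the test then called 4% in sums of all cells and 12% in BEC-like sums. With the dispersion set to 0.05 it called 64% and 60% of such genes. Of genes changed 4-fold, 74% and 88% were called at the estimated dispersion. Each run changed 50 genes at each fold from 2 to 16 and drew every gene independently. Deviations that many genes share within a library, as in the libraries numbered 2, were thus left out. The shares called may therefore be too high for these data, and the lack of calls does not show that 4-fold changes were absent.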
